A study of Mus musculus with 16 samples.

Results

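The genes described here build the machinery that segregates chromosomes: the kinetochore, the condensin complexes, the spindle assembly checkpoint, and a few proteins of the chromosomal passenger complex and the spindle. They form a list of 44 named genes out of 19938 with a probe of a single symbol, chosen by function, and each was read on the array probe that carries that symbol alone. All 44 have exactly such a probe, 0 of them have several, and all 44 were among the 16427 genes tested. The list was split by role into 13 inner kinetochore genes, 14 outer kinetochore genes, 5 checkpoint genes, 8 condensin genes and 4 passenger and spindle genes.

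Naive T cells rest outside the cell cycle, and stimulation through the T cell receptor with costimulation lets them enter division. Kinetochores assemble on centromeric chromatin marked by the histone variant CENP-A; the inner kinetochore rests on that chromatin, the outer kinetochore grips microtubules, and unattached kinetochores send the checkpoint signal that holds back anaphase. Condensin compacts chromosomes as cells enter mitosis, and most genes of this machinery are transcribed late in the cell cycle.

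RNA came from naive CD4+ T cells, sorted from the spleen and lymph nodes of B6 mice as CD62L high and CD25 negative, and cultured for 24 h in medium with 10% serum together with antibody-coated latex beads. The arrays formed 4 groups of 4: KO_CD3CD28, knockout cells for the transcription factor Dec1 (gene Bhlhe40) with beads carrying anti-CD3 and anti-CD28; WT_CD3CD28, wild-type cells with the same beads; KO_CD3, knockout cells with anti-CD3 beads; and WT_CD3, wild-type cells with anti-CD3 beads. The labels do not say which part of the gene was deleted, whether the deletion was limited to T cells, or whether replicates came from separate animals, and the p-values here reflect differences among the arrays as given, which may be technical. Values are log2 signals of the authors' RMA processing.

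Some facts of the arrays touch every result. Array medians over all probes lay between 6.64 and 6.97. Bhlhe40 was at 5.88 ± 0.14 (SD, n = 4) in KO_CD3CD28, against 9.51 ± 0.71 in WT_CD3CD28, and at 5.53 ± 0.32 in KO_CD3, against 7.56 ± 0.42 in WT_CD3, so the targeted gene was lower in knockout cells under both stimuli. Of 10 CD4 T cell identity genes 7 were tested, and 0 of them were near background in any group; near background here means that the probe's mean percentile among all probes of its arrays was below 40. Of 6 tested B cell markers 4 were near background with anti-CD28 (Cd79a, Ms4a1, Blnk and Cd22) and 3 without it, and of 9 myeloid and dendritic cell markers 6 with it and 5 without. Of 5 tested CD8 and NK cell markers 0 were near background except Klrd1 in WT_CD3CD28, so the CD8 chains Cd8a and Cd8b1 gave signal in all groups. The median level of the 44 genes was 7.02 and 6.89 in KO_CD3 replicates 1 and 2, against 7.58 and 7.43 in replicates 3 and 4. WT_CD3 replicate 3 was the highest array of its group for 38 of the 44 genes. The count of genes called between genotypes under anti-CD3 is given with and without these arrays.

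Adding anti-CD28 raised most of these genes. In knockout cells 40 of 44 rose and 0 fell, against 20.4% of all tested genes that rose and 17.6% that fell (limma, Benjamini-Hochberg adjusted p under 0.05). In wild-type cells 39 of 44 rose and 0 fell, against 16% of all tested genes that rose and 13% that fell. The median log2 difference over the 44 genes was 2.35 in knockout and 1.81 in wild type, against -0.063 and -0.03 over all tested genes. The values with anti-CD28 lay wholly above those without it for 39 genes in knockout, where 18.7% of all tested genes did so, and for 39 in wild type, where 16.2% did. In bulk RNA, fewer cells that express a gene and less of its RNA per cell cannot be told apart.

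**Figure D1:**
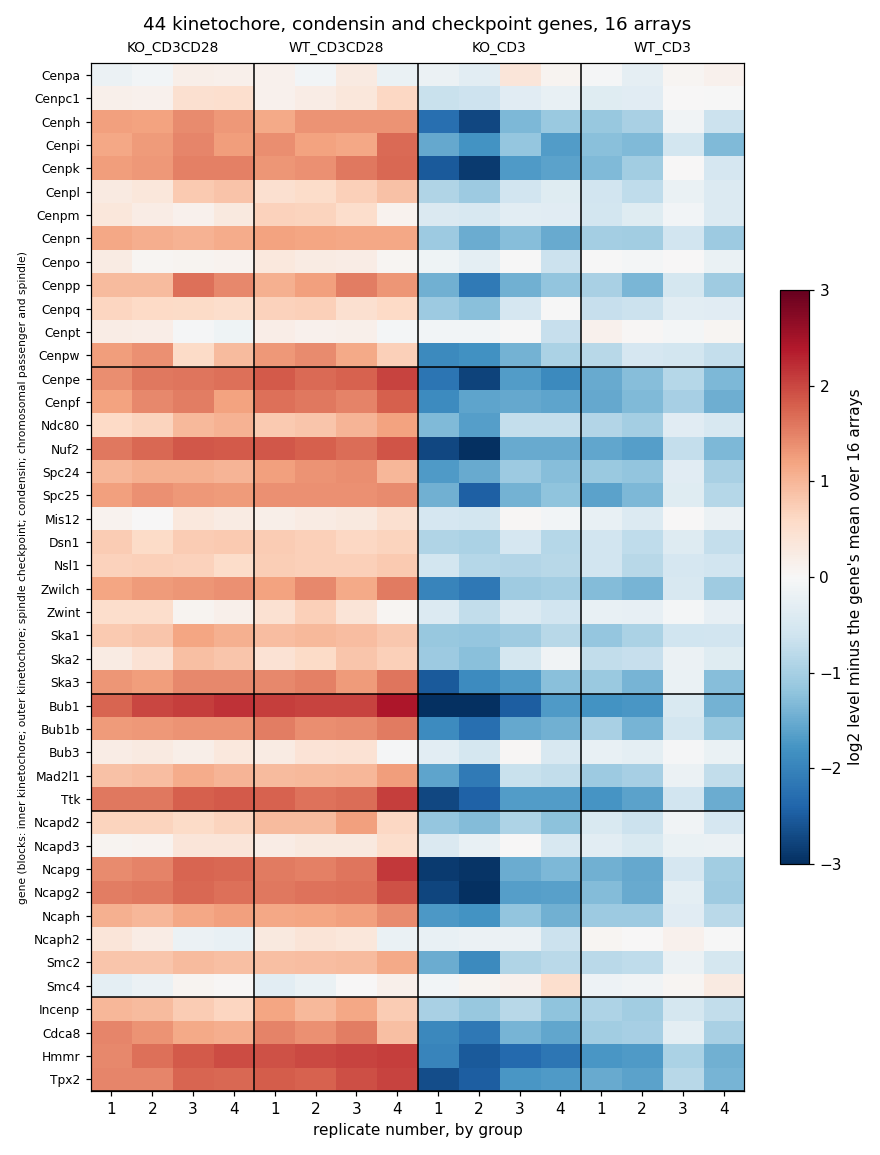
Log2 level of each of the 44 genes on each of the 16 arrays, as the difference from the gene's mean over all arrays (colour scale in log2 units). Columns are replicates 1 to 4 of each group, and horizontal lines part the 5 functional blocks. Cenpa, Smc4, Cenpt, Cenpo and Ncaph2 stay pale across the groups, and the darkest blue cells are in KO_CD3 replicates 1 and 2.

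Bub1, a checkpoint kinase at the kinetochore, had the largest fitted difference in knockout, and in wild type its fitted value and the lower bound of Hmmr, given below, were too close to be ranked. Its log2 level was 10.52, 10.77, 10.85 and 10.94 in KO_CD3CD28, against 5.73, 4.85, 6.31 and 7.08 in KO_CD3, and 10.85, 10.80, 10.79 and 11.19 in WT_CD3CD28, against 6.99, 7.02, 8.32 and 7.35 in WT_CD3. The groups with anti-CD28 overlap each other, and both lie far above the groups without it. The difference was at least 4.78 in knockout (SE 0.35, adjusted p = 2e-08), a lower bound because KO_CD3 was near background, and 3.48 in wild type (SE 0.35, adjusted p = 1.22e-06). Among the other checkpoint genes, Ttk, the kinase that starts checkpoint signalling, differed by at least 3.82 in knockout and by 3.14 in wild type, and Bub1b, which encodes the checkpoint protein BubR1, by 3.09 and 2.49. Mad2l1, which binds and inhibits the anaphase activator CDC20, differed by 2.26 and 1.79. Bub3, the partner that brings BUB1 and BubR1 to kinetochores, moved least, by 0.58 (SE 0.12, adjusted p = 0.00111) and 0.45 (SE 0.12, adjusted p = 0.00836). All 5 checkpoint genes rose in both genotypes. With replicates 3 and 4 alone Bub3 was not called in either, with adjusted p of 0.139 in knockout and 0.371 in wild type.

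All 14 outer kinetochore genes rose in both genotypes, with a median difference of 2.23 in knockout and 1.94 in wild type. The 4 subunits of the NDC80 complex, which binds microtubules directly, moved by 1.92 to 3.98 in knockout and by 1.64 to 3.13 in wild type, with Ndc80 at the low and Nuf2 at the high end in both. Nuf2 was at 10.55, 10.68, 10.82 and 10.80 in KO_CD3CD28, against 6.23, 5.80, 7.45 and 7.46 in KO_CD3. It was at 10.82, 10.76, 10.64 and 10.85 in WT_CD3CD28, against 7.40, 7.30, 8.24 and 7.62 in WT_CD3. Its values with anti-CD28 fall within a narrow band in both genotypes, while KO_CD3 replicates 1 and 2 are below every other array. Cenpe, a kinesin motor of the outer kinetochore, differed by at least 3.70 (SE 0.18) in knockout and by 3.08 (SE 0.18) in wild type, and Cenpf, a large corona protein, by at least 3.0 (SE 0.12) and by 2.96 (SE 0.12). The subunits of the SKA complex, which helps NDC80 track microtubule ends, ranged in wild type from 1.12 for Ska2 to 2.45 for Ska3. The smallest change in the block was that of Mis12, which names the complex linking inner and outer kinetochore, at 0.45 (SE 0.13, adjusted p = 0.0107) in knockout and 0.50 (SE 0.13, adjusted p = 0.00682) in wild type. In knockout the call of Mis12 was lost after a further quantile normalization (adjusted p = 0.066) and with replicates 3 and 4 alone (0.129). Its partners Dsn1 and Nsl1 differed by 1.53 and by at least 1.44 in knockout, and by 1.30 and 1.36 in wild type.

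In the inner kinetochore 11 of 13 genes rose in knockout and 10 of 13 in wild type. Cenpk, Cenpi, Cenph and Cenpp, subunits of the constitutive centromere network, had the largest differences in knockout, from 2.79 to 3.57, and differed by 2.01 to 2.48 in wild type. Those of Cenpi and Cenpp are lower bounds in both genotypes and that of Cenph in knockout, since their anti-CD3 groups were near background. Cenpn, which reads the CENP-A nucleosome, differed by 2.45 (SE 0.11) in knockout and 2.11 (SE 0.11) in wild type, and Cenpw, a histone-fold protein that binds DNA with CENP-T, by 2.57 and 1.79. Cenpl, a partner of CENP-N, and Cenpq, a subunit bound to the same network, moved by 1.30 each in knockout and by 1.14 and 1.12 in wild type. Cenpm differed by 0.64 and 0.85, and Cenpc1, which encodes the scaffold CENP-C, by 0.78 and 0.50.

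Cenpa, which encodes the centromeric histone itself, was not called in either genotype. It was at 9.05, 9.16, 9.41 and 9.38 in KO_CD3CD28, against 9.05, 8.93, 9.60 and 9.32 in KO_CD3, and at 9.36, 9.15, 9.50 and 9.03 in WT_CD3CD28, against 9.20, 8.97, 9.29 and 9.37 in WT_CD3. All 4 groups overlap. The fitted difference was 0.03 in knockout (95% interval -0.28 to 0.33) and 0.05 in wild type (-0.25 to 0.36), and its sign turned under several alternatives. Cenpt, the partner of Cenpw, was at 8.39, 8.37, 8.14 and 8.05 in KO_CD3CD28, against 8.10, 8.10, 8.15 and 7.49 in KO_CD3, and at 8.38, 8.30, 8.33 and 8.12 in WT_CD3CD28, against 8.30, 8.21, 8.11 and 8.23 in WT_CD3. These groups overlap too, with KO_CD3 replicate 4 the lowest array. The fitted difference was 0.28 in knockout (95% interval 0.01 to 0.55, adjusted p = 0.0964, or 0.0344 with the replicate number as a block) and 0.07 in wild type (-0.20 to 0.34). Cenpo, a subunit of a complex that docks on the inner kinetochore, was at 9.17, 9.0, 9.02 and 9.03 in KO_CD3CD28, against 8.80, 8.64, 8.93 and 8.28 in KO_CD3, and at 9.26, 9.19, 9.16 and 9.0 in WT_CD3CD28, against 8.91, 8.87, 8.94 and 8.73 in WT_CD3. Its values with anti-CD28 lay above those without it in both genotypes. It rose in knockout by 0.39 (adjusted p = 0.0105), a call lost with replicates 3 and 4 alone (adjusted p = 0.175), and differed by 0.29 in wild type (adjusted p = 0.0653, or 0.0185 with the block). The partners Cenpt and Cenpw thus had fitted differences far apart, each read on a single probe, and the gap between them was not tested.

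Condensin also held both large and small differences. Condensin I and II share the ATPases SMC2 and SMC4 and each adds 3 subunits of its own. Smc2 differed by 2.15 (SE 0.19, adjusted p = 1.59e-07) in knockout and by 1.55 (SE 0.19, adjusted p = 1.08e-05) in wild type. Smc4 was at 11.55, 11.66, 11.91 and 11.87 in KO_CD3CD28, against 11.75, 11.91, 11.97 and 12.33 in KO_CD3, and at 11.51, 11.64, 11.84 and 11.98 in WT_CD3CD28, against 11.69, 11.72, 11.90 and 12.11 in WT_CD3. The groups overlap, yet within each replicate number Smc4 was lower with anti-CD28 in both genotypes. The fitted difference was -0.24 in knockout (95% interval -0.53 to 0.04, adjusted p = 0.169, or 0.012 with the replicate block and 0.0384 after a further quantile normalization) and -0.11 in wild type (-0.39 to 0.18, adjusted p = 0.611). Its probe was brighter than most, between the mean percentiles 96.9 and 97.9 of its arrays in all 4 groups.

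The 3 condensin I subunits, Ncapg, Ncaph and Ncapd2, rose by 3.76, 2.64 and 1.8 in knockout and by 2.82, 2.08 and 1.36 in wild type. Of the condensin II subunits, Ncapg2 rose by 3.89 (SE 0.28) in knockout and by 2.73 (SE 0.28) in wild type, while Ncapd3 rose by 0.50 and 0.62. Ncaph2 was at 8.72, 8.59, 8.18 and 8.15 in KO_CD3CD28, against 8.13, 8.19, 8.19 and 7.73 in KO_CD3, and at 8.66, 8.76, 8.71 and 8.16 in WT_CD3CD28, against 8.43, 8.37, 8.50 and 8.35 in WT_CD3. These groups overlap, and the gene was not called, at 0.35 in knockout (95% interval 0.04 to 0.67, adjusted p = 0.0733, or 0.0153 with the block) and 0.16 in wild type (-0.15 to 0.48). The differences between these subunits were not tested.

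The passenger and spindle genes all rose. Hmmr, a spindle protein, had values of 8.68, 8.88, 9.07 and 9.19 in KO_CD3CD28, against 5.26, 4.73, 4.91 and 5.06 in KO_CD3, and of 9.15, 9.22, 9.26 and 9.31 in WT_CD3CD28, against 5.49, 5.55, 6.28 and 5.79 in WT_CD3. Both anti-CD3 groups were near background, so its differences of at least 3.97 (SE 0.16) in knockout and at least 3.46 (SE 0.16) in wild type are lower bounds. Tpx2, which activates Aurora A and seeds spindle microtubules, rose by at least 3.73 in knockout and by 3.23 in wild type. Cdca8, the passenger subunit borealin, rose by 3.02 and 2.16, and Incenp, the scaffold that binds Aurora B, by 1.87 and 1.82.

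**Figure D2:**
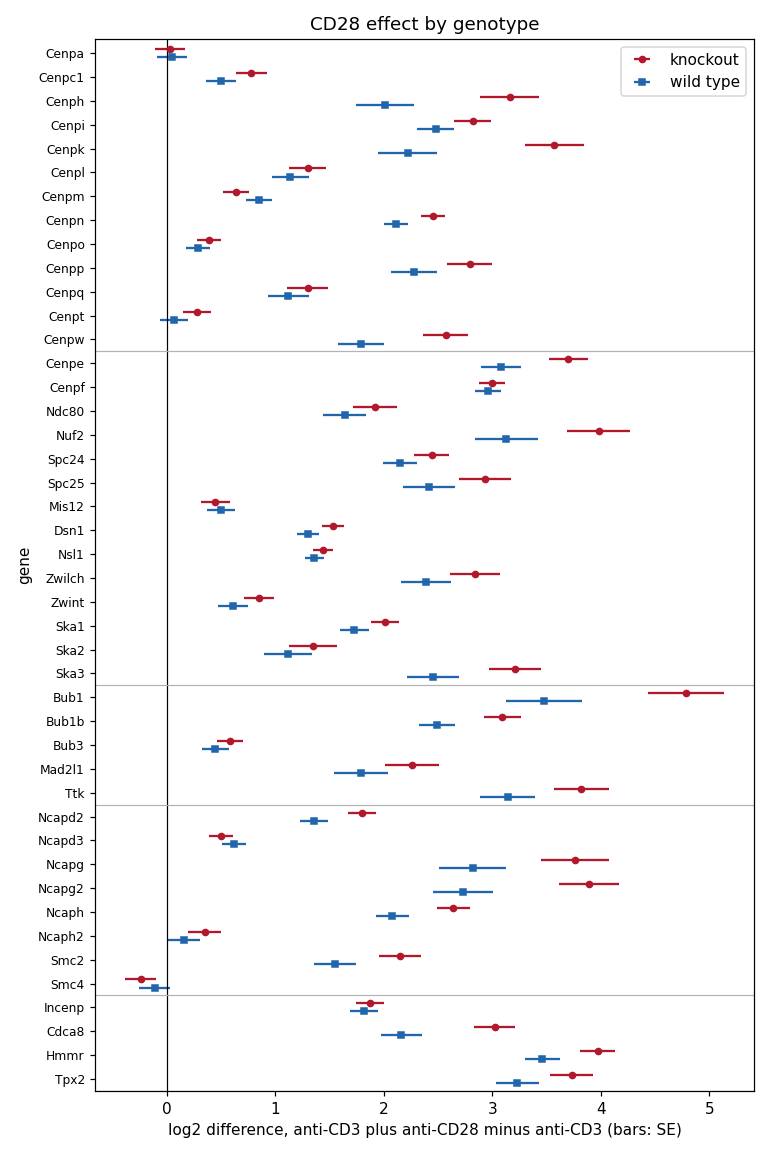
Fitted log2 difference between anti-CD3 plus anti-CD28 and anti-CD3 alone for each of the 44 genes, in knockout (circles) and wild-type cells (squares), with SE bars from limma over 16 arrays. Horizontal lines part the functional blocks. Bub1 lies furthest to the right at 4.78 in knockout and 3.48 in wild type, and Cenpa, Cenpt and Smc4 lie near 0.

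The promoters of a few members are shown because the genes moved together and because genes of this phase of the cell cycle are known for a shared promoter grammar: the cell cycle homology region (CHR, letters TTTGAA or TTCGAA), bound by the DREAM and B-MYB complexes, and CCAAT boxes, bound by NF-Y. Sequences are from RefSeq (build GRCm38.p6), run 5′ to 3′ on the gene's strand from 250 bases before to 50 bases after the annotated start, and carry CHR and CCAAT letters of either strand in capitals. Bub1 (chr2:127831810-127832109, minus strand), Hmmr (chr11:40733388-40733687, minus strand), Cdca8 (chr4:124936868-124937167, minus strand) and Cenpf (chr1:189688037-189688336, minus strand) rose, while Cenpa (chr5:30666636-30666935, plus strand) was not called.
Bub1: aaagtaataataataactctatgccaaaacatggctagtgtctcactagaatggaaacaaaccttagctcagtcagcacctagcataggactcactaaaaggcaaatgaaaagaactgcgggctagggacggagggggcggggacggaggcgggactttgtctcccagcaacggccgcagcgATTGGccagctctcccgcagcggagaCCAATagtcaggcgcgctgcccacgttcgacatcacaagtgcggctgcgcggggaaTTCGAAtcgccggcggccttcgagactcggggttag
Hmmr: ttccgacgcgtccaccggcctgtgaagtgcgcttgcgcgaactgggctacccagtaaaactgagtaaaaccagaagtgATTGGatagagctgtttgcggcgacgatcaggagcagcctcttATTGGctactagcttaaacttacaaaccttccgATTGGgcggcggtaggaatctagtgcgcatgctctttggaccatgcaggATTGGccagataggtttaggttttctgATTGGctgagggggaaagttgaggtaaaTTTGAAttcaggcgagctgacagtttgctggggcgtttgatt
Cdca8: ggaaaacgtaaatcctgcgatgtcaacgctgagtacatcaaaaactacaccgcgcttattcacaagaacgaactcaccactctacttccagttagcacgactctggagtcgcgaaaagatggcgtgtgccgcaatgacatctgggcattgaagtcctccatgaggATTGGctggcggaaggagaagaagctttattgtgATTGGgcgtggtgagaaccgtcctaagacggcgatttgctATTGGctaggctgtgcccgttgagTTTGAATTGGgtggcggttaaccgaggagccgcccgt
Cenpf: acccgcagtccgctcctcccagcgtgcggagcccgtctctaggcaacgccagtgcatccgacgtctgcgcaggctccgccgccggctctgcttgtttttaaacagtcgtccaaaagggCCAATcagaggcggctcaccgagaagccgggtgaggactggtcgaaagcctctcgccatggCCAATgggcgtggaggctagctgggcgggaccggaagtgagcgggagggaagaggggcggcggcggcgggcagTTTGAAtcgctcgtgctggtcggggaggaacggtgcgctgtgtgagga
Cenpa: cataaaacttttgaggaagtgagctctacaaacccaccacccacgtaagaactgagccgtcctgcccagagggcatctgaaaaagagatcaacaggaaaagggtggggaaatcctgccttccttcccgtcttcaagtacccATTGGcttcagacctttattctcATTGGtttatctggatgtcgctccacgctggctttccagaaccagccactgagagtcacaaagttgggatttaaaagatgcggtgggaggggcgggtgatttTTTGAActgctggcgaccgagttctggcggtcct

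The CHR letters begin 15 bases from the annotated start in Bub1, 9 in Hmmr, 14 in Cdca8, 3 in Cenpf and 17 in Cenpa, counting the start as 1. Hmmr has 5 CCAAT matches in the window, Cdca8 4, and Bub1, Cenpf and Cenpa 2 each. In Cdca8 the last CCAAT match, read on the other strand, shares its first base with the end of the CHR letters. So Cenpa, which was not called, also carries CHR letters (TTTGAA, as in Hmmr, Cdca8 and Cenpf, where Bub1 has TTCGAA) and CCAAT. Cenpk, which rose in both genotypes and is not shown, has 3 windows with 0 CHR matches and 1 or 2 CCAAT matches each. Of the 44 genes 37 had a promoter in the RefSeq table, with 41 windows of 300 bases. CHR letters stood in 22 of the 41 windows (53.7%), against 19.2% of all 32851 windows, and CCAAT in 28 (68.3%), against 37.4%. An E2F site, spelled TTTCCCGC, TTTGGCGC, TTTGCCGC or TTTCGCGC on either strand, stood in 6 (14.6%), against 2.3%. The palindrome CACGTG, an E-box that Dec1 is known to bind, stood in 1 window (2.4%), that of Ttk, against 7.2%. The promoters shown all carry both CHR and CCAAT. Other rising genes, such as Bub1b, Ttk and Smc2, had both as well, and some rising genes did not. Nuf2 and Cenpp, which rose in both genotypes, had no match to any of these motifs. Cenpe, Cenpi and Cenph also rose and had CCAAT but no CHR letters. Ncaph2, which was not called, and Bub3 and Ncapd3, which moved little, had CHR letters. These matches describe letters only, and their part in the rise was not tested.

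The knockout was then set against wild type under anti-CD3 alone. Here 8 of 44 genes were lower in knockout and 0 higher, against 0.749% of all tested genes that were lower and 0.28% that were higher: Cenpk, Ncapg2, Cdca8, Cenpe, Hmmr, Bub1b, Ncapd2 and Ncaph. The median over the 44 genes was -0.46, against 0.033 over all tested genes, and 41 of the 44 fitted differences were below 0, as were 44.6% of those of all tested genes. Knockout values lay wholly below wild-type values for 14 genes, where 6.63% of all tested genes did so, and 29 genes were lower in knockout in all 4 replicate numbers, where 17.8% of all tested genes were. With the replicate number as a block 23 of 44 genes were called lower, the 8 among them, against 6.56% of all tested genes. These values share their KO_CD3 and WT_CD3 arrays with the anti-CD28 comparisons above.

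The count of 8 depended on single arrays and on whether the level of Xist was added as a covariate. It was 0 without KO_CD3 replicate 2 or WT_CD3 replicate 3, 2 without replicate 1 of either group, and 15 without KO_CD3 replicate 3 or 4. It was 5 without WT_CD3 replicate 2 or 4, without WT_CD3CD28 replicate 1, 2 or 3, or without KO_CD3CD28 replicate 2 or 4. With replicates 1 and 2 alone 22 genes were called lower, against 6.57% of all tested genes, and with replicates 3 and 4 alone 0, against 0.0%, although the median difference of the 44 genes was -0.48 and -0.47 in these sets. With replicates 3 and 4 alone 28 of the 44 (63.6%) had an unadjusted limma p under 0.05, against 18.2% of all tested genes. With the level of Xist, which marks female cells, as a covariate 2 genes were called, Cenpk and Ncapd2, and the median was -0.44.

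Cenpk and Bub1 had the largest fitted differences, which cannot be ranked because that of Bub1 is a lower bound in size. Cenpk was at 6.86, 6.49, 7.66 and 7.76 in KO_CD3, against 8.04, 8.32, 9.38 and 8.86 in WT_CD3. No knockout array reached the lowest wild-type array, and in each genotype replicates 3 and 4 were above 1 and 2. The fitted difference was -1.46 (SE 0.27, adjusted p = 0.0236), a 2.74-fold lower level in knockout, and it was -1.41 with replicates 3 and 4 alone (adjusted p = 0.0969). Bub1 was at -1.43 (SE 0.35, adjusted p = 0.0565, or 0.0102 with the replicate block), with a large spread of 5.99 ± 0.94 (SD, n = 4) in KO_CD3, against 7.42 ± 0.62 in WT_CD3. Cenph differed by -1.15 (adjusted p = 0.0519, or 0.00796 with the block). Both have KO_CD3 near background, so these sizes are lower bounds.

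Condensin held 3 of the 8 called genes. Ncapg2 was at 6.03, 5.76, 7.14 and 7.16 in KO_CD3, against 7.49, 7.27, 8.50 and 7.73 in WT_CD3, a fitted difference of -1.23 (SE 0.28, adjusted p = 0.0481). Ncapd2 was at 7.80, 7.66, 8.04 and 7.74 in KO_CD3, against 8.51, 8.31, 8.85 and 8.46 in WT_CD3 (-0.72, SE 0.13, adjusted p = 0.0197). Ncaph was at 7.57, 7.49, 8.10 and 7.85 in KO_CD3, against 8.19, 8.21, 8.96 and 8.49 in WT_CD3 (-0.71, SE 0.15, adjusted p = 0.0421). In all 3 the knockout arrays lay below the wild-type arrays without overlap. The call of Ncapg2, close to the threshold, was lost with no filter (adjusted p = 0.0521), with a trended and robust variance (0.0537) and after a further quantile normalization (0.0501). That of Ncaph was lost without KO_CD3CD28 replicate 2 (0.0567), an array outside this comparison. Smc2 and Ncaph2 also had no overlap between genotypes but were not called, at -0.71 (adjusted p = 0.0717, or 0.0123 with the block) and -0.35 (adjusted p = 0.168, or 0.0475 with the block). Smc4 differed by 0.14 (95% interval -0.15 to 0.42) and Ncapd3 by 0.01 (-0.23 to 0.25).

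Cdca8 was at 6.64, 6.42, 7.18 and 7.02 in KO_CD3, against 7.52, 7.59, 8.27 and 7.61 in WT_CD3, a difference of -0.93 (SE 0.19, adjusted p = 0.0316). Hmmr was called lower (adjusted p = 0.0288), but both of its groups were near background, so no size is given. Cenpe was at 5.87, 5.29, 6.39 and 6.17 in KO_CD3, against 6.55, 6.79, 7.22 and 6.73 in WT_CD3. Its groups did not overlap, and its difference of -0.89 (SE 0.18, adjusted p = 0.0351) is a lower bound in size. Bub1b was at 6.97, 6.59, 7.32 and 7.42 in KO_CD3, against 7.88, 7.45, 8.31 and 7.73 in WT_CD3, again without overlap (-0.77, SE 0.17, adjusted p = 0.0421). Its call too was lost without KO_CD3CD28 replicate 2 (adjusted p = 0.0571). The outer kinetochore held only Cenpe among the called genes, with a block median of -0.37, and the NDC80 subunits ranged from -0.90 for Nuf2 (adjusted p = 0.102, or 0.0278 with the block) to -0.42 for Ndc80 (adjusted p = 0.205, or 0.0226 with the block). Other genes passed with the block and not without it: Tpx2 (-0.79, adjusted p = 0.0609, or 0.00546), Cenpw (-0.88, 0.0511, or 0.0228), Ska3 (-0.84, 0.0834, or 0.028), Ttk (-0.77, 0.101, or 0.022) and Ncapg (-1.04, 0.0936, or 0.0122). Of these Tpx2, Ska3 and Ttk were near background in KO_CD3, so their sizes are lower bounds. At the other end Mis12 differed by -0.08 (95% interval -0.36 to 0.19), Cenpm by -0.04 (-0.29 to 0.21) and Cenpa by 0.01 (-0.29 to 0.32).

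**Figure D3:**
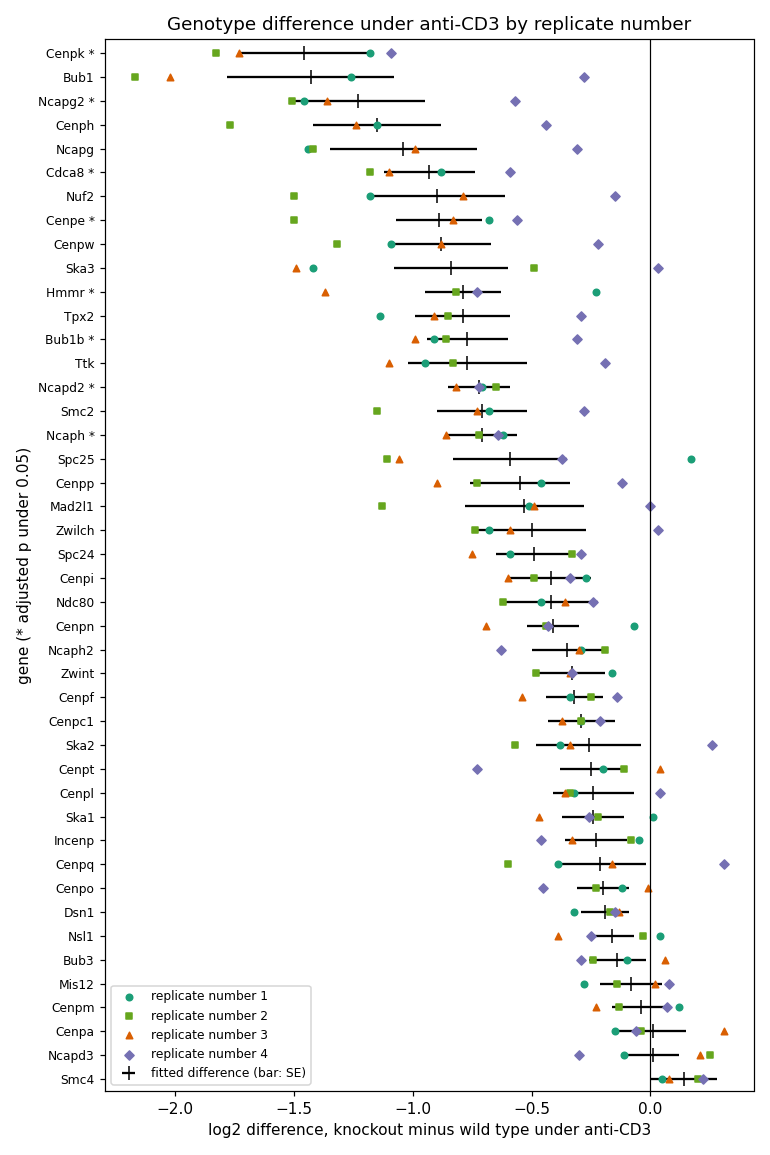
Log2 difference between knockout and wild type under anti-CD3 for each gene, drawn for each replicate number (symbols) with the fitted difference and its SE (black), ordered from the lowest fitted value. Asterisks mark the 8 genes with an adjusted p under 0.05; the 4 symbols lie left of 0 for 29 genes, and the median differences of replicate numbers 1 to 4 are -0.38, -0.58, -0.59 and -0.28.

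The arrays of the anti-CD3 groups were uneven among replicates. The median log2 level over the 44 genes was 7.02, 6.89, 7.58 and 7.43 in KO_CD3 replicates 1 to 4, against 7.72, 7.58, 8.26 and 7.73 in WT_CD3. WT_CD3 replicate 3 was the highest array of its group for 38 of 44 genes, and KO_CD3 replicate 2 the lowest of its group for 29. The median within-group SD of the 44 genes was 0.32 in KO_CD3 and 0.28 in WT_CD3, against 0.16 and 0.12 over all tested genes in these groups. With anti-CD28 it was 0.13 in KO_CD3CD28 and 0.16 in WT_CD3CD28, against 0.13 and 0.15 over all tested genes. The proliferation marker Mki67 varied with them, at 6.62, 6.37, 7.86 and 7.50 in KO_CD3, against 7.84, 7.56, 8.62 and 8.02 in WT_CD3, and differed between genotypes by -0.92 (SE 0.27, adjusted p = 0.0917, or 0.0102 with the block). Of 5 tested regulatory T cell markers, which activated T cells also express, 0 were called between the genotypes. With the block 2 were lower in knockout, against 6.56% of all tested genes. The summed linear signal of the 5 markers was 3514 to 4344 in KO_CD3, against 4846 to 7150 in WT_CD3, and their part in the result was not tested. Summed B cell markers overlapped, at 512 to 674 and 564 to 622, as did myeloid and dendritic cell markers, at 920 to 1329 and 992 to 1070, and CD8 and NK cell markers, at 1565 to 2721 and 1440 to 1769. Single markers of these lists moved apart with the block: Klrd1 (0.92, adjusted p = 0.0755, or 0.00421 with the block), Cd8a (0.27, 0.105, or 0.0496) and Cd14 (0.47, 0.0665, or 0.0286) were higher in KO_CD3, and Eomes (-0.74, 0.13, or 0.0258) was lower, and their part in the result was not tested either.

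With both antibodies the genotypes were close. None of the 44 genes was called (limma, 0 of 44; background 0.0% higher and 0.00609% lower), and 2 (4.55%) had an unadjusted p under 0.05, close to the 3.32% of all tested genes that did. The median difference was -0.09, against 0.016 over all tested genes, with 40 of 44 fitted values below 0, against 44.4% of those of all tested genes. Tpx2 had the largest, at 9.91, 9.90, 10.19 and 10.16 in KO_CD3CD28, against 10.26, 10.21, 10.39 and 10.48 in WT_CD3CD28, a difference of -0.30 (95% interval -0.71 to 0.12, adjusted p = 0.999). Its groups did not overlap, nor did those of Cenpe, Nsl1 and Bub1b, 4 genes in all, where 0.645% of all tested genes were lower without overlap. For Cenpk the difference was -0.11 (95% interval -0.68 to 0.46), for Bub1 -0.13 (-0.87 to 0.61) and for Ncapg2 -0.07 (-0.66 to 0.53). These genes had the largest fitted differences under anti-CD3, and those fitted values lie outside these intervals. For Ndc80 (-0.42 under anti-CD3, interval here -0.56 to 0.28) and Spc24 (-0.49, interval -0.54 to 0.14) they lie inside. The values under anti-CD3 have errors of their own, so the change between stimuli was tested only as the interaction below. The per-array median of the 44 genes was 9.51 to 9.59 in KO_CD3CD28, against 9.63 to 9.66 in WT_CD3CD28.

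Whether the anti-CD28 effect itself depended on genotype was tested as an interaction. limma called 0 of the 44 genes and 0 of all tested genes (background 0.0% in each direction), with 14 of the 44 and 867 of all 16427 at an unadjusted p under 0.05. The fitted anti-CD28 effect was larger in knockout for 39 of 44 genes, with a median interaction of 0.34, against 0.001 over all tested genes, of which 49.7% were below 0. Cenpk and Bub1 had the largest fitted interactions. That of Cenpk was 1.34 (SE 0.38, 95% interval 0.54 to 2.15, adjusted p = 0.905, or 0.164 with the block), that of Bub1 at least 1.30 (SE 0.49, adjusted p = 0.905), since KO_CD3 was near background, and that of Ncapg2 1.16 (SE 0.40, adjusted p = 0.905). With replicates 1 and 2 alone 7 genes were called (Cdca8, Cenph, Cenpk, Cenpw, Ncapg, Ncapg2 and Nuf2), against 0.45% of all tested genes called higher, and with replicates 3 and 4 alone 0, with 9 (20.5%) at an unadjusted p under 0.05, against 2.61% of all tested genes. A difference between the genotypes in the response of these genes was thus not shown with all arrays.

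**Figure D4:**
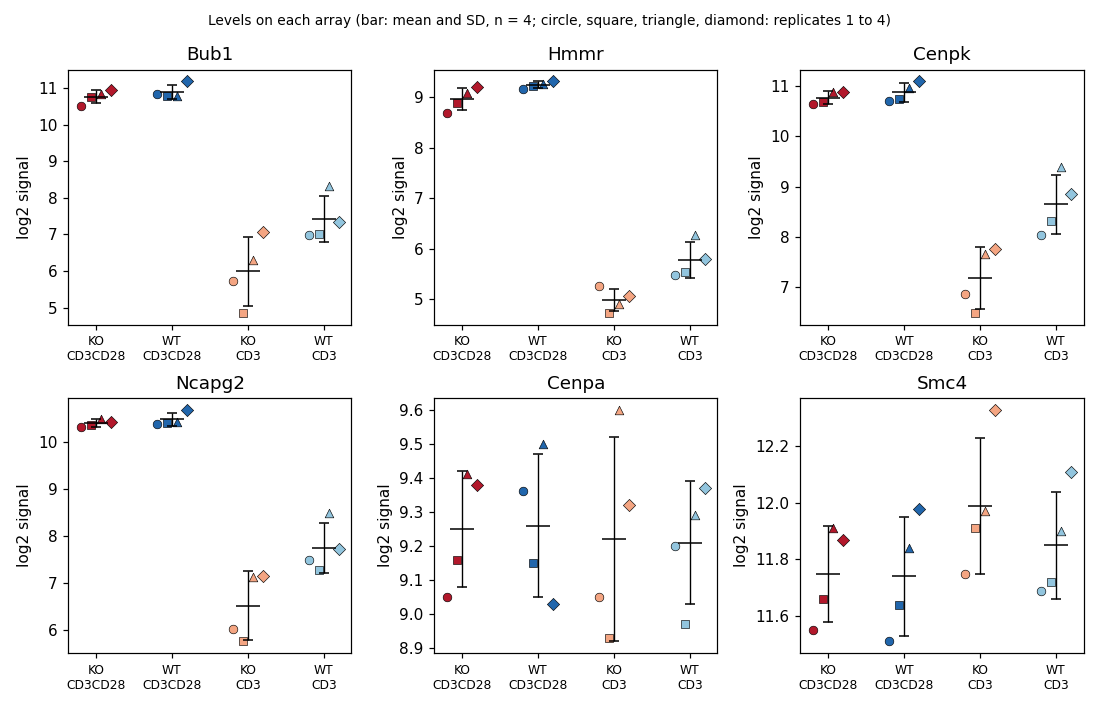
Log2 signal of 6 genes on each array, with the group mean and SD (n = 4); symbols give replicates 1 to 4, and each panel has its own axis, which does not start at 0. In Bub1, Hmmr, Cenpk and Ncapg2 the groups with both antibodies lie together above the anti-CD3 groups, and KO_CD3 has the lowest mean; in Cenpa and Smc4 all groups overlap.

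Genes of the same processes outside the list moved alike in part. The counts below stand beside 20.4% of all tested genes that rose and 17.6% that fell in knockout. In wild type these shares were 16% and 13%. Of 16 tested genes among 19 other kinetochore and centromere genes, 14 rose with anti-CD28 in knockout and 13 in wild type, with medians of 1.27 and 1.16. Knl1, the scaffold that recruits BUB proteins, differed by at least 4.11 (SE 0.27) in knockout and by 3.42 (SE 0.27) in wild type, and the shugoshin Sgo1, a guardian of centromeric cohesion, by 2.40 and 2.16. Of 24 other checkpoint and anaphase genes 15 rose in knockout and 14 in wild type, with medians of 0.49 and 0.35; Ube2c, a ubiquitin-conjugating enzyme of the anaphase-promoting complex, rose by 2.40 and 2.39. Of 22 other spindle and cytokinesis genes 21 rose and 1, Numa1, named for being the exception, fell in both genotypes. Cohesin, the ring that holds sister chromatids together, had smaller medians than condensin (1.97 in knockout and 1.45 in wild type): of 14 genes of cohesin and its loaders 7 rose and 3 fell in knockout, and 9 rose and 2 fell in wild type, with medians of 0.28 and 0.41. Its core ATPases Smc1a and Smc3 differed by 0.66 and 0.53 in knockout and by 0.44 and 0.42 in wild type, while Esco2, which acetylates cohesin in S phase, differed by 3.61 and 3.08. The difference between cohesin and condensin was not tested.

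Between genotypes under anti-CD3, 0 of 16 other kinetochore genes, 0 of 24 checkpoint and anaphase genes, 3 of 22 spindle genes (Tacc3, Cep55 and Dlgap5) and 2 of 14 cohesin genes (Cdca5 and Smc1a) were lower in knockout, and 0 in any of these lists were higher. Of all tested genes 0.749% were lower and 0.28% higher. With the replicate block the counts of lower genes were 5, 3, 11 and 3, against 6.56% of all tested genes. Tacc3, which stabilises spindle microtubules, differed by -0.76 (SE 0.14, adjusted p = 0.022) and Cdca5, the cohesin protector sororin, by -0.85 (SE 0.18, adjusted p = 0.0418). With anti-CD28 the genotypes had 0 called genes in all 4 lists.

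Markers of other cells moved with the anti-CD28 comparison as well. Of all tested genes 20.4% rose and 17.6% fell in knockout, and 16% and 13% in wild type. All 5 tested regulatory T cell markers rose in knockout and 3 in wild type, with a summed signal of 8344 to 10237 in KO_CD3CD28, against 3514 to 4344 in KO_CD3, and of 7992 to 10855 in WT_CD3CD28, against 4846 to 7150 in WT_CD3. Summed B cell signal was 446 to 488 in KO_CD3CD28, against 512 to 674 in KO_CD3, and 429 to 494 in WT_CD3CD28, against 564 to 622 in WT_CD3. Of the 6 tested B cell markers 4 fell in knockout and 3 in wild type, and of 9 myeloid and dendritic cell markers 6 and 4. Summed myeloid and dendritic cell signal was 698 to 758 in KO_CD3CD28, against 920 to 1329 in KO_CD3, and 678 to 771 in WT_CD3CD28, against 992 to 1070 in WT_CD3. Of 5 CD8 and NK cell markers 4 rose and 1, Klrd1, fell in both genotypes. Of 7 CD4 T cell identity genes 3 fell in knockout and 5 in wild type. The part of these shifts in the rise of the 44 genes was not tested.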

How the data were processed

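The authors deposited log2 signals; RMA is named in the submitters' processing notes. RMA corrects background, normalizes between arrays and summarizes probe sets; its version, the array design's genome build and any further filter are not given in the sources used here. Arrays give no counts, so their number limits the precision. The file holds 35556 probes on 16 arrays with 0 missing values. Probes were named through the supplied platform annotation (21789 with a single symbol, 1621 with several); gene identifiers changed 0 symbols.

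Probes above the 25th percentile of the array in 4 or more of the arrays were kept (17930 probes), and the brightest probe stood for each of 16427 genes. limma (version 3.58.1, R 4.3.3) fitted a mean per group over all 16 arrays with moderated variances (12 residual and 4.92 prior degrees of freedom), with Benjamini-Hochberg adjustment over all genes. On simulated arrays for the genotype comparison under anti-CD3 (16427 genes) it recovered 73% of 1.5-fold and 90% of 2-fold changes. Both sizes were simulated together, and 16 unchanged genes were called in that run. These shares are for all tested genes, and recovery for the 44 genes was not tested. Their median within-group SD was 0.32 in KO_CD3 and 0.28 in WT_CD3, against 0.16 and 0.12 over all tested genes. Deviations of arrays with the same replicate number correlated at 0.157 to 0.586 in the 4 comparisons. Arrays with different numbers were not correlated, so these values do not show that the number pairs samples. The number was fitted as a block in an alternative. The main fit and the runs without single arrays had no block. Alternatives were no filter, a filter at the median of the array, the mean of a gene's kept probes, a trended and robust variance, a further quantile normalization, median centring, the block, replicates 1 and 2 or 3 and 4 alone, each array left out, and the Xist level as a covariate (chosen after seeing the data). Every member could be named. Array values are given for the largest difference in each comparison, the genes not called with anti-CD28 and those called between genotypes. Those called between genotypes were added after seeing the values. Array values are also given for Nuf2, which had the largest fitted anti-CD28 difference of the outer kinetochore genes. The members and lists were chosen with earlier results of these data known. Figures used Python 3.11.15 and matplotlib 3.10.9.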

Additional observations from a re-analysis of the deposited data

Results flagged for a closer look

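Among the 176 sets of 4 arrays (44 genes in 4 groups), 17 had an array that stood far from the other 3 by Dixon's gap criterion at the 95% level; chance alone flags about 1 in 20 sets. WT_CD3 replicate 3 was the high array for Cenpi (6.65, others 5.87 to 5.94), Cenpn (8.2, others 7.69 to 7.76), Zwint (8.81, others 8.61 to 8.63) and Cdca8 (8.27, others 7.52 to 7.61). WT_CD3CD28 replicate 4 was high for Bub1 (11.19), Mad2l1 (11.96, others 11.64 to 11.69), Ncapg (11.5, others 10.89 to 10.97) and Ncapg2 (10.69, others 10.38 to 10.43), and low for Ncaph2 (8.16, others 8.66 to 8.76). KO_CD3 replicate 4 was low for Cenpt (7.49, others 8.1 to 8.15) and Ncaph2 (7.73, others 8.13 to 8.19).

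KO_CD3 replicate 1 was low for Cenpf (5.8, others 6.11 to 6.16) and high for Nsl1 (6.65, others 6.31 to 6.37). The remaining flags were small in size: Cenph in WT_CD3CD28 replicate 1 (9.25, others 9.45 to 9.46), Cenpo in KO_CD3CD28 replicate 1 (9.17, others 9 to 9.03), Dsn1 in KO_CD3CD28 replicate 2 (8.74, others 8.93 to 8.95) and Nsl1 in KO_CD3CD28 replicate 4 (7.74, others 7.89 to 7.91).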

How the results depend on the processing

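The anti-CD28 counts held under the alternatives run: leaving out each array gave 40 to 41 of 44 genes called in knockout and 39 to 40 in wild type, and no other setting moved them by over 1.5 times. The genotype count of 8 under anti-CD3 became 23 with the replicate block, 22 with replicates 1 and 2 alone, 0 with replicates 3 and 4 alone, 2 with the Xist level as a covariate (chosen after seeing the data) and 0 to 15 when single arrays were left out. The interaction count of 0 became 7 with replicates 1 and 2 alone, and leaving out arrays gave 0 to 0; the genotype count with both antibodies was 0 throughout. Apart from the values given in the report, the replicate block changed no member's call in the anti-CD28 comparisons, and under anti-CD3 it also called Cenpc1 (adjusted p = 0.021), Cenpn (0.0261), Cenpp (0.0231) and Spc24 (0.027). The causes were not tested. Centring each array on its median shifted the median of all genes by 0.134 for the anti-CD28 effect in knockout, and the median of the 44 genes was 2.49 there.

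Signs turned only for differences close to 0 that were not called. For Cenpa the anti-CD28 difference was -0.12 (knockout) and -0.0104 (wild type) after a further quantile normalization, -0.0649 and -0.0652 with replicates 3 and 4 alone, and -0.0714 to 0.15 (knockout) and -0.0284 to 0.13 (wild type) without single arrays; its genotype difference under anti-CD3 was -0.074 after median centring, -0.1 with replicates 1 and 2 alone, and -0.11 to 0.11 without single arrays. In the same comparison Ncapd3 was at -0.0763 after median centring, -0.0466 with replicates 3 and 4 alone and -0.0839 to 0.0783 without single arrays. Mis12 was at 0.0182 after quantile normalization, 0.0464 with replicates 3 and 4 alone and -0.19 to 0.0114 without single arrays, Cenpm at -0.11 to 0.0456 without single arrays, Cenpq at 0.0708 with replicates 3 and 4 alone and Nsl1 at 0.00383 with replicates 1 and 2 alone.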
